A study of Mus musculus with 20 samples.

Results

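The 39 genes described here encode the secreted Wnt proteins and the surface and secreted proteins that bind them or their receptors. They comprise 19 Wnt ligands, 10 Frizzled receptors, the 2 co-receptors Lrp5 and Lrp6, and 8 secreted antagonists of the Sfrp and Dkk families. Members were chosen by gene family. The window of a gene was its annotated body plus 5 kb on either side, and the 39 windows stand among 22089 windows of protein-coding genes with a unique symbol. All 39 symbols matched the mouse annotation (build NCBIM37, also called mm9). Windows of members were 26905 bp long at the median, against 25421 bp for all genes.

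Wnt proteins are lipid-modified secreted signals that act over short distances and pattern the nervous system, heart, limbs and many other parts of the embryo. A Wnt bound to a Frizzled receptor and to Lrp5 or Lrp6 stabilises β-catenin, which then activates target genes together with TCF/LEF factors, while other Frizzled complexes act on cell polarity and movement. Sfrp proteins bind Wnts outside the cell, and Dkk proteins mostly act on Lrp5 and Lrp6.

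The study mapped 5-formylcytosine (5fC), an oxidation product of 5-methylcytosine made by TET enzymes and removed by thymine DNA glycosylase (TDG). Genomic DNA carrying 5fC was tagged with biotin through a cleavable probe, pulled down and sequenced from tissues of mid-gestation mouse embryos, and peaks were called in each library by itself. The groups were hindbrain from 4 wild-type (WT) and 4 Tdg null embryos, and heart, carcass and liver from 2 WT and 2 Tdg null embryos. Each null hindbrain had a WT hindbrain of the same litter (litters A, O, Q and Z), while the other 3 tissues came from the same 4 embryos of litter pairs a and b. Null embryos carried, in every cell from the start, a Tdg allele without its catalytic part, exchanged for a neomycin selection cassette. Tissues were dissected whole, so cell types cannot be told apart. The null liver of pair b had 228 peaks in all, none in a member window, and was left out as the study did, so null liver is 1 library without a measure of its spread. No hindbrain shared an embryo or a litter with another tissue, so tissue and litter cannot be told apart in comparisons of hindbrain with the others. Each hindbrain library came from a separate embryo, but heart, carcass and liver libraries of an embryo share their source. The p-values of the tissue comparisons rest on the spread within tissues between these few embryos. They treat libraries as independent and do not take shared embryos into account, except in an alternative fit with the embryo as a block.

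The values are derived from peaks, not reads, and the sequencing depth behind them is not known from these files. Null libraries other than the null liver left out held 101344 to 254319 peaks that covered 2.68% to 8.09% of the ungapped genome, whereas WT libraries held 1563 to 42013 peaks over 0.0349% to 0.939%. Relative density is the share of a window under peaks divided by the share of the genome under peaks in the same library, so that 1 is the mean of the genome. Tissue labels were set against 5fC over marker genes, which is no measure of expression. The 12 heart markers had a median relative density of 6.79 in null heart against 1.46 in null hindbrain. The 12 hindbrain markers, however, had a median of 0 in null hindbrain, against 0.325 in null carcass and 0 in heart and liver. The hindbrain label was thus not checked by 5fC. The 8 hepatocyte markers were at 1.35 in null liver, against 0.611 in null carcass, 0.952 in heart and 1.07 in hindbrain. In the same liver library the heart markers were at 2.31, and the 7 erythroid markers, of the blood cells that form in the fetal liver, were at 0, against 1.26 in heart, 0.607 in carcass and 0.469 in hindbrain. The liver label was thus not settled by 5fC either.

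Examples of the stretches of DNA under peaks are shown for 6 of the genes, since the peaks recurred at the same places, on the plus strand of NCBIM37, 5′ to 3′, with CpG dinucleotides in capitals because most methylated cytosine in mammalian DNA lies in that context. A stretch is a run of bases under peaks in every library of the tissues named and in none of the other null libraries. The first sequence comes from a stretch under peaks in all 9 null libraries, the middle 200 bases (chr7:119288251-119288450) of a stretch of 1300 bp in an intron of Dkk3, the longest of that kind in the member windows.
Dkk3 intron: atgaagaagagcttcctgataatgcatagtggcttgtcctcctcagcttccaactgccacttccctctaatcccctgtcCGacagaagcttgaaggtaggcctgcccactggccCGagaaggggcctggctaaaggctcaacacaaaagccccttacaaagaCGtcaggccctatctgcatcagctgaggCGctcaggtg
The next 3 come from stretches that belonged to a single tissue. The Wnt1 stretch of 300 bp (chr15:98617801-98618100), centred at -2338 bp from the start, was covered in the null hindbrains only. The Wnt7b stretch of 1200 bp in an intron was covered in the null hearts only (chr15:85375501-85375700 shown), and the Fzd5 stretch of 800 bp upstream of the gene in the null carcasses only (chr1:64787201-64787400 shown).
Wnt1 upstream: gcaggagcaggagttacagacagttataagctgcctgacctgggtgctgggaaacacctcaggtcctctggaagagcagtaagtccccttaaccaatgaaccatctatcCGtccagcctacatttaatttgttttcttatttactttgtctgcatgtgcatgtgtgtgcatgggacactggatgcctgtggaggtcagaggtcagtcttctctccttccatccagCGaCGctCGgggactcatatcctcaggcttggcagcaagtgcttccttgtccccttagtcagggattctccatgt
Wnt7b intron: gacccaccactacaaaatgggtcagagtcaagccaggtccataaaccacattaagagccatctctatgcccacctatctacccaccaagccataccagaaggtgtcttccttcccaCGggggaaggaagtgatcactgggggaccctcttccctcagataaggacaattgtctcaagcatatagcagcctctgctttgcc
Fzd5 upstream: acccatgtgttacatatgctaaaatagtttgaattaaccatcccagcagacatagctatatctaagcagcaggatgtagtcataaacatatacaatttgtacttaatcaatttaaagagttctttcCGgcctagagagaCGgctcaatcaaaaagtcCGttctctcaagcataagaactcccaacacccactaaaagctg
The last pair was chosen after the values were seen, since Fzd10 and Fzd9 are receptors with peaks in every library of some null tissues and in none of others. The Fzd10 stretch of 1800 bp downstream of the gene was shared by null hindbrains and carcasses (chr5:129112301-129112500 shown), and the Fzd9 stretch of 600 bp upstream of the gene was shared by null hindbrains and hearts (chr5:135728701-135728900 shown).
Fzd10 downstream: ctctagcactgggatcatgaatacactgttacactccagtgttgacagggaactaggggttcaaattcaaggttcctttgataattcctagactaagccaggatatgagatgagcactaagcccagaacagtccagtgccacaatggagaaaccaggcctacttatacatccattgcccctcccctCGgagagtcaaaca
Fzd9 upstream: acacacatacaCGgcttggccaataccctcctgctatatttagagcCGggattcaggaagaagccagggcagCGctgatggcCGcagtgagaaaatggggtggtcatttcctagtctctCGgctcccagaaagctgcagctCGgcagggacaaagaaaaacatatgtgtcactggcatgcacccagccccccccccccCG
The Fzd10 sequence holds CTTTGAT, a form of the TCF/LEF recognition motif searched on both strands, which no other sequence shown here holds. This motif was present in 3.21% of 7411 tiles of 200 bases over the 39 windows, and its presence is a description of the letters.

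Most of the 39 genes carried 5fC peaks in null embryos, at a density above the mean of the genome. A total of 24 had a peak in all 9 null libraries, a share of 61.5% against 40.8% of all windows, and 1, Wnt10a, had none in any. The median relative density of the members was 1.56 ± 0.237 (SD, n = 4) in null hindbrain, 1.95 ± 0.358 (n = 2) in heart, 1.74 ± 0.275 (n = 2) in carcass and 1.21 in the 1 liver library. The same medians over all windows were 0.747, 0.810, 0.544 and 0.404, and the lowest member median of any library in hindbrain, heart or carcass was above the highest median over all windows in that tissue. No test over the list was made, since genes of a family are not replicates.

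**Figure D1:**
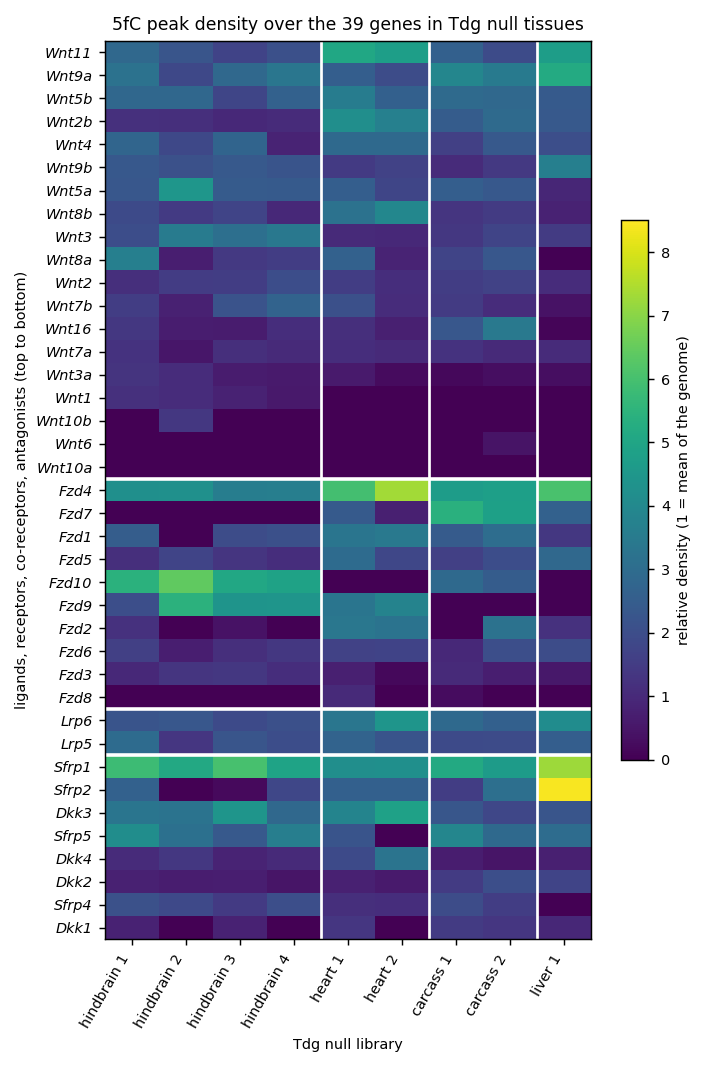
Relative density of 5fC peaks (colour, 1 is the mean of the genome) over the windows of the 39 genes (rows, grouped by role and ordered by mean) in the 9 Tdg null libraries (columns). Sfrp1 and Fzd4 are high in every library, the lowest ligands Wnt10b, Wnt6 and Wnt10a have a peak in at most 1 library each, and Fzd7, Fzd9 and Fzd10 change between 0 and over 3 from tissue to tissue.

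The antagonist Sfrp1, which binds Wnts through a Frizzled-like domain, had the highest mean over the 4 tissues (5.47). Its values were 5.84, 5.13, 6.02 and 4.93 in null hindbrains, 4.21 and 4.22 in hearts, 5.17 and 4.68 in carcasses, and 7.26 in liver. Every null library was thus more than 4 times the genome mean over this gene. Fzd4, a receptor known for its part in retinal vessel growth, followed at 5.36, with 4.24, 4.27, 3.61 and 3.63 in hindbrains, 5.97 and 7.33 in hearts, 4.71 and 4.81 in carcasses and 6.08 in liver. Both genes stood near the top of all windows, at percentiles 98.7 and 98.6. The 3 other members of the highest 5 were Sfrp2 (3.63), Wnt11 (3.53) and Wnt9a (3.49). Sfrp2, a Wnt-binding antagonist like Sfrp1, rested on the liver library, with 8.43 there against 2.63, 0, 0.218 and 1.82 in hindbrains, 2.61 and 2.60 in hearts and 1.55 and 3.09 in carcasses. Wnt9a, a ligand with a role in joint formation, had 3.19, 1.84, 2.87 and 3.35 in hindbrains, 2.53 and 1.99 in hearts, 3.90 and 3.51 in carcasses and 5.18 in liver, and its tissues overlapped only between hindbrain and heart.

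The 5 lowest members were mostly ligands. Wnt10a had no peak in any library, Wnt6 a single null carcass at 0.452, and Wnt10b a single null hindbrain at 1.37. Wnt6 and Wnt10a are neighbours with overlapping windows (3804 bp shared), so their low values are not independent. Fzd8 had 1.02 in one null heart and 0.278 in one null carcass and 0 in the other 7 null libraries. Wnt1, the ligand that maintains the midbrain-hindbrain boundary and dorsal neural tube, completed this set with a mean of 0.229 and is described below. Among close neighbours, the peaks over Wnt1 were thus set beside an almost empty Wnt10b 11706 bp away, while the pair Wnt3 and Wnt9b, 24328 bp apart, was covered at both genes. The pair Wnt3a and Wnt9a, 16175 bp apart, had means of 0.475 and 3.49.

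By role, the 2 co-receptors had the highest medians in hindbrain (2.13 ± 0.327, n = 4) and heart (3.18 ± 0.215, n = 2), and the 19 ligands had 1.39 ± 0.203 and 1.31 ± 0.342. The 10 receptors had 1.26 ± 0.177 in hindbrain and 2.22 ± 0.663 in heart, and the 8 antagonists 1.77 ± 0.517 and 1.96 ± 0.149. Genes of a role differed among themselves. In hindbrain, ligand means ran from 0 to 3.02, receptor means from 0 to 5.47 and antagonist means from 0.407 to 5.48, while both co-receptors stood at 2.13.

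Whether loss of TDG raised 5fC over these genes was asked by comparing covered bases between the genotypes. In hindbrain, every null library exceeded every WT library at 29 of the 39 members (74.4%), against 55.0% of all windows. The members comprised 16 of 19 ligands, 5 of 10 receptors, 2 of 2 co-receptors and 6 of 8 antagonists. The corresponding counts were 31 (79.5%) in heart against 63.9% of all windows, 32 (82.1%) in carcass against 60.2%, and 30 (76.9%) for the 1 null liver against both WT livers, against 54.5%. No member was higher in every WT than in every null library in hindbrain, heart or carcass. In hindbrain, heart and carcass alike, 26 members separated the genotypes, against 44.1% of all windows. The 4 members that did so in no tissue were the nearly empty Fzd8, Wnt6, Wnt10a and Wnt10b.

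**Figure D2:**
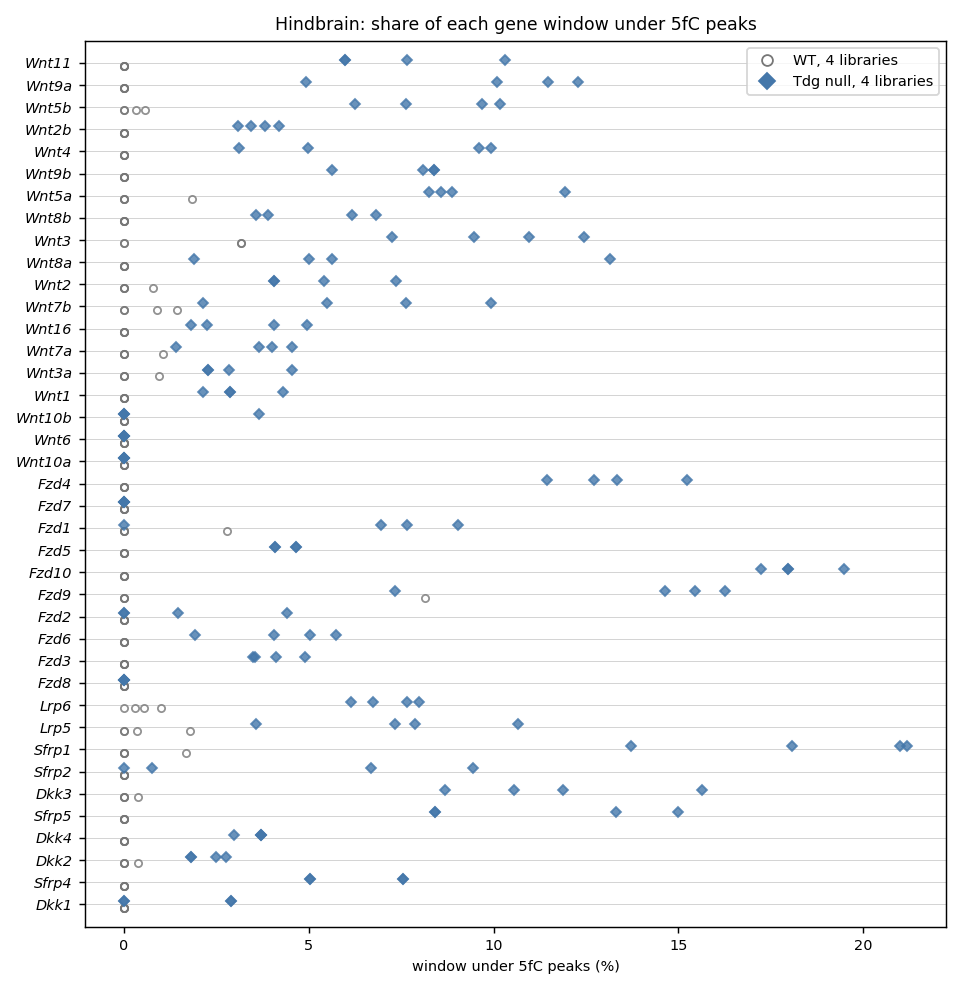
Share of each gene window under 5fC peaks (x axis, percent) in the 4 WT (open circles) and 4 Tdg null (filled diamonds) hindbrain libraries, with genes grouped by role. WT points lie at 0 for most genes and do not reach the null points at 29 of 39 genes.

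The difference in hindbrain is shown by the bases covered. Over Sfrp1, the 4 null hindbrains had 10104, 6600, 10200 and 8700 bases under peaks, and the 4 WT hindbrains 0, 0, 800 and 0. Over Wnt5a, a ligand of the polarity branch, null hindbrains had 2700, 3900, 2800 and 2900 bases and WT hindbrains 0, 0, 600 and 0. Over Fzd4 the null libraries had 2400, 1800, 2000 and 2100 bases and no WT library had any. The groups did not overlap at any of the 3. At Fzd9 they overlapped, since the WT hindbrain of litter Q had 1000 bases and the null hindbrain of litter A had 900, while the other null hindbrains had 1800, 1900 and 2000. At the receptors Fzd1 and Fzd2, the antagonists Sfrp2 and Dkk1 and the ligand Wnt10b, at least 1 null hindbrain had no peak. Fzd7, Fzd8, Wnt6 and Wnt10a had none in either genotype of the hindbrain.

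The exact permutation test of 4 against 4 cannot go below p = 0.0286 (two-sided), which all 29 members reached, and no member reached p under 0.05 with WT higher. After Benjamini-Hochberg adjustment over all windows the smallest adjusted p was 0.0519, so no member passed 0.05. That test ignored the litter pairs, and exact sign flips over the 4 hindbrain litters cannot go below p = 0.125. With tissues of a litter averaged, 29 members were higher in null in 6 of 6 litters, against 54.6% of all windows. Their exact sign-flip p was 0.03125, the smallest that 6 litters allow, and the adjusted p was 0.0572. With 2 against 2 in heart and carcass the smallest exact p is 0.33, so those counts are given without a test.

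The larger number of peaks in null libraries moved with these differences. In relative density, which sets each library against its own coverage, null exceeded WT without overlap at 19 members in hindbrain (48.7%, against 36.3% of all windows), 28 in heart (71.8%, against 51.9%) and 16 in carcass (41.0%, against 35.5%). On that scale 7 members were higher in both WT carcasses than in both null carcasses, as were 11.5% of all windows, and 1 was so in heart, against 2.27% of all windows.

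Peaks in WT embryos were sparse, and the share of members with repeated WT peaks was near that of all windows. Of the 39 members, 22 had a peak in at least 1 WT library, against 52.9% of all windows, and 17 had none. Of the 22, 8 had one in at least 4 of the 10 WT libraries, a share of 20.5% against 17.4% of all windows, and all 8 were covered in all 9 null libraries. The longest windows are among them, so that length moved with the count, and its part was not tested. Lrp6, a co-receptor for canonical Wnt signalling, had peaks in 8 WT libraries: 700, 1300 and 400 bases in 3 of the 4 hindbrains, 500 in one heart, 3900 and 2800 in carcasses and 1000 and 700 in livers. Null libraries covered 8000 to 10400 bases of the gene in hindbrain, 35400 and 21100 in heart, 20500 and 25600 in carcass and 16300 in liver. Lrp5, the related co-receptor that controls bone mass, had 400 and 2000 bases in 2 WT hindbrains, 1500 in one heart, 2900 and 2100 in carcasses and 800 in one liver. Null libraries held from 4000 bases in one hindbrain to 24364 in one heart.

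Wnt3, a ligand needed for gastrulation and limb outgrowth, had WT peaks in 6 libraries. The WT hindbrains of litters O and Q each had 1700 bases, both WT hearts 600, and the WT carcasses 1900 and 1500. Null libraries had 3900, 5100, 5900 and 6700 bases in hindbrain, so that the genotypes stayed apart there. The other 5, with peaks in 4 WT libraries each, were the ligands Wnt5b, Wnt7a and Wnt7b and the Dkk family members Dkk2 and Dkk3, and each had peaks in both WT carcasses. Wnt5b had 3300 and 3100 bases there and 400 and 700 in 2 WT hindbrains. Wnt7a, which dorsalises the limb, had 700 and 1400, Wnt7b, needed for the lung and placenta, 1000 and 600, Dkk2 1400 and 1700 and Dkk3 1500 and 1800. Without the WT liver of pair b, which had no null partner in use, the member windows held 124 WT peaks, of which 83 (66.9%) also lay under a null peak of the same litter and tissue, against 64.3% over all windows.

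The second question was whether the tissues of null embryos differed at these genes. Relative densities of the 9 null libraries were compared with limma across the 17889 windows covered in at least 2 of them, on a log2(density + 0.5) scale, and an adjusted p under 0.05 was called. Wnt6, Wnt10a and Wnt10b did not enter, which left 36 members. Between hindbrain and heart 11 members were called, 30.6% against 31.4% of all windows tested. Between hindbrain and carcass 7 were called, 19.4% against 4.39%, and between heart and carcass 9, 25.0% against 26.6%. All windows together had median differences of -0.16, 0.14 and 0.32. The members' share lay above the background in the second contrast and near it in the others under this scaling, with no test of the share made. With quantile normalization, 8 of the 36 members were called higher in hindbrain than heart and 6 lower, against 27.3% of all windows. The 3 contrasts share libraries, so they are not independent of each other, and liver entered the fit as 1 library without contrasts of its own.

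**Figure D3:**
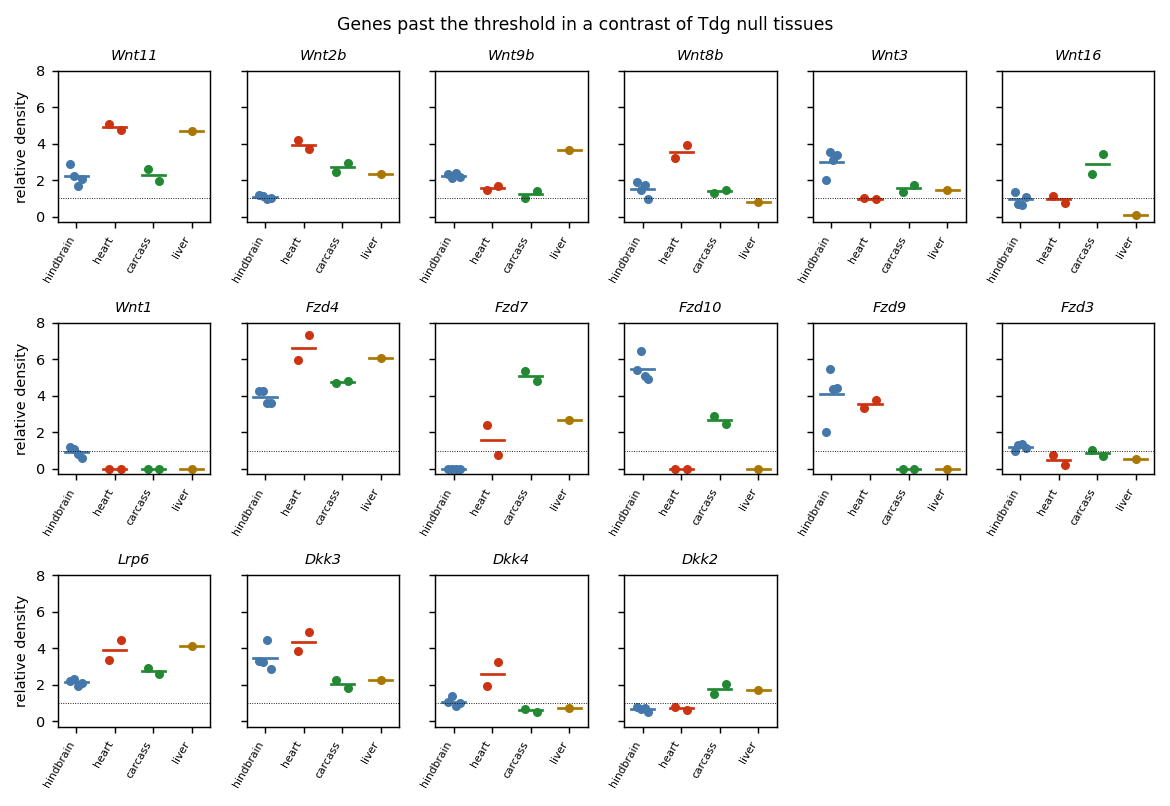
Relative density (y axis) in each null library (points, with the group mean as a bar) of the 16 genes past an adjusted p of 0.05 in at least 1 contrast between null tissues, where the dotted line marks the genome mean of 1. Fzd7, Fzd9, Fzd10 and Wnt1 have tissues in which no library had a peak.

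Among the members called, a Frizzled gene had the largest difference in each contrast. Fzd10, a receptor of the dorsal neural tube, had relative densities of 5.42, 6.44, 5.11 and 4.90 in null hindbrains, 2.92 and 2.48 in carcasses, and 0 in both hearts and the liver. The hindbrain stood above the carcass (log2 difference 0.90 ± 0.16, SE, adjusted p = 0.0264, limma) and the hearts were at 0, with adjusted p of 0.000243 against hindbrain and 0.00158 against carcass. Hindbrain, carcass and heart did not overlap, though the call between hindbrain and carcass was lost with no scaling and with no filter. These peaks lay beside the gene and not over it: in 3 hindbrains they ran from -6718 bp from the start to the edge of the 5 kb flank or just inside it, and from 4782 to 6981 bp past the start, where the gene is 3250 bp long. No null library had a peak within the body of Fzd10.

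Fzd7, a receptor found on progenitor cells of several tissues, had the opposite pattern to Fzd10 in hindbrain. Values were 0 in all 4 null hindbrains, 2.41 and 0.742 in hearts, 5.38 and 4.82 in carcasses and 2.65 in liver. Hindbrain was thus below carcass (adjusted p = 0.00402) and heart (adjusted p = 0.00547), and heart below carcass (log2 difference -1.56 ± 0.37, adjusted p = 0.0221, limma). No fold is given against tissues with no peak. All 3 calls were lost with a flank of 10 kb, the call between hindbrain and heart also with no flank, that between heart and carcass also with no filter or no scaling, and both calls of heart with peaks of at least 600 bp. In the carcasses, peaks fell upstream of Fzd7, in its single exon and over the downstream flank, and the heart peaks touched the flanks only.

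Fzd9, a receptor with known roles in the hippocampus and in bone, had 2.04, 5.47, 4.39 and 4.43 in hindbrains, 3.32 and 3.80 in hearts, and 0 in both carcasses and the liver. Hindbrain and heart overlapped, and both were called above carcass (adjusted p = 0.00626 and 0.00360). Both calls were lost with no flank (adjusted p = 0.224 and 0.278). The stretch of 600 bp whose middle is printed above was covered in all 6 libraries of hindbrain and heart. Fzd4 was lower in hindbrain than heart (log2 difference -0.68 ± 0.14, adjusted p = 0.0110), with no overlap between the values given above but no call under quantile normalization, and Fzd3, a receptor of axon guidance and planar polarity, was higher in hindbrain. Its values were 0.988, 1.31, 1.39 and 1.12 in hindbrains, 0.761 and 0.192 in hearts, 1.02 and 0.730 in carcasses and 0.554 in liver. That call (log2 difference 0.86 ± 0.27, adjusted p = 0.0477) was near the threshold and was lost without either null carcass, null heart 2 or any single null hindbrain, and with a pseudocount of 0.1, no scaling, no filter and peaks of at least 600 bp. The other 5 Frizzled genes, Fzd1, Fzd2, Fzd5, Fzd6 and Fzd8, passed in no contrast, and Fzd2 had 0 in 2 hindbrains and 1 carcass but 3.36 and 3.23 in the hearts.

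**Figure D4:**
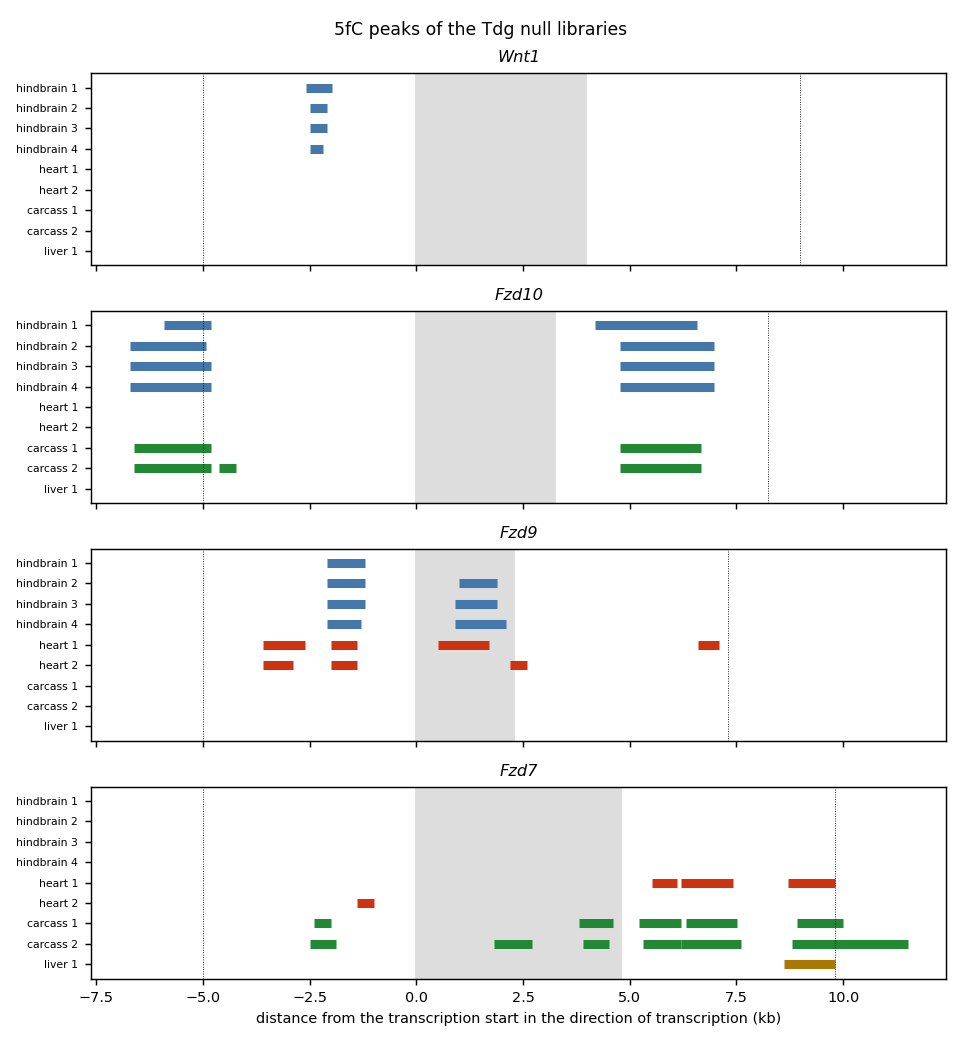
Positions of 5fC peaks (bars) around Wnt1, Fzd10, Fzd9 and Fzd7 in the 9 null libraries, by distance from the transcription start in kb, with the gene body shaded and the window edges dotted. Wnt1 has 1 peak in each hindbrain and none elsewhere, the Fzd10 peaks lie outside the gene body, and the Fzd9 peaks are absent from carcass and liver.

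Among the ligands, Wnt1 had 1 peak in each null hindbrain and none in any other library of either genotype. The 4 peaks covered 600, 400, 400 and 300 bases, or relative densities of 1.19, 1.07, 0.813 and 0.585, and all held the 300 bp stretch printed above. Wnt1 passed the filter on covered windows through the hindbrains alone, so that it had to differ. Its adjusted p against heart (0.00382, limma) and carcass (0.0166) are given as a description, and it is among the 11 and 7 members called above. Wnt3 was higher in hindbrain (2.02, 3.54, 3.11 and 3.39) than in heart (1.01 and 0.970), with a log2 difference of 1.21 ± 0.22 (adjusted p = 0.00735, limma), a call lost with no scaling. Wnt3 had 1.38 and 1.75 in carcasses, which did not pass against hindbrain (adjusted p = 0.101), and 1.47 in liver. Wnt9b, which acts in kidney and face formation, had 2.33, 2.10, 2.38 and 2.20 in hindbrains, 1.45 and 1.69 in hearts, 1.04 and 1.40 in carcasses and 3.66 in liver, and hindbrain was above carcass (0.69 ± 0.15, adjusted p = 0.0472). That call was lost with a pseudocount of 1, quantile normalization, no filter, no flank and a flank of 10 kb and without any single hindbrain or carcass library, and the difference turned to -0.035 with no scaling.

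The next 3 ligands were lower in hindbrain than in heart. Wnt2b, a ligand of forelimb and lung induction, had 1.17, 1.15, 0.979 and 1.04 in hindbrains, 4.19 and 3.70 in hearts, 2.47 and 2.94 in carcasses and 2.36 in liver. It differed from heart by -1.49 ± 0.14 (adjusted p = 0.000833) and from carcass by -1.02 ± 0.14 (adjusted p = 0.0124), and much of the difference lay in the flanks, since with no flank both calls were lost and the difference from carcass turned to 0.21. The call against carcass was also lost with a flank of 10 kb. Wnt11, a ligand of the polarity branch expressed in heart precursors, had 2.87, 2.24, 1.70 and 2.08 in hindbrains, 5.05 and 4.75 in hearts, 2.59 and 1.94 in carcasses and 4.72 in liver. Heart was above hindbrain (log2 difference -1.01 ± 0.19 for hindbrain minus heart, adjusted p = 0.00941) and above carcass (0.98 ± 0.22, adjusted p = 0.0206), the latter lost with quantile normalization, no scaling, no flank and peaks of at least 600 bp. Wnt8b, a ligand of the forebrain, had 1.90, 1.46, 1.75 and 0.973 in hindbrains, 3.19 and 3.92 in hearts, 1.33 and 1.49 in carcasses and 0.817 in liver, with adjusted p of 0.0139 and 0.0222 for heart against hindbrain and carcass. Of its 3 heart-only stretches of 700 bp or more, 2 lay in the neighbour Sec31b downstream, and the third spanned the start of Wnt8b. Both calls of Wnt8b were lost with no flank, and that against carcass also with quantile normalization and with no scaling. Wnt16 was called between heart and carcass, at 1.16 and 0.743 in hearts, 2.32 and 3.45 in carcasses, 1.38, 0.674, 0.640 and 1.11 in hindbrains and 0.110 in liver (heart minus carcass -1.22 ± 0.32, adjusted p = 0.0327). The difference of hindbrain from carcass was of like size (-1.23 ± 0.28) and did not pass (adjusted p = 0.0574), and the call was lost with no flank, no filter, no scaling and peaks of at least 600 bp. The 9 other ligands tested passed in no contrast.

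Lrp6 was the co-receptor that differed. Its relative density was 2.22, 2.29, 1.92 and 2.09 in hindbrains, 3.35 and 4.44 in hearts, 2.92 and 2.60 in carcasses and 4.12 in liver, lower in hindbrain than heart by -0.73 ± 0.15 (adjusted p = 0.0107). Lrp5 passed in no contrast, with 2.96, 1.34, 2.24 and 2.00 in hindbrains and 2.69 and 2.21 in hearts. Among the antagonists, Dkk4 was higher in heart (1.92 and 3.26) than in hindbrain (1.03, 1.39, 0.842 and 1.01, adjusted p = 0.0217) and carcass (0.688 and 0.491, adjusted p = 0.0104), with 0.733 in liver. The difference from hindbrain turned with a 10 kb flank, where the call against carcass was lost. Dkk3, a divergent family member, was higher in heart (3.84 and 4.87) than carcass (2.27 and 1.80, adjusted p = 0.0226), with 3.30, 3.24, 4.44 and 2.88 in hindbrains and 2.24 in liver, and this call was lost with quantile normalization and with no scaling. Dkk2 had 1.48 and 2.03 in carcasses and 1.73 in liver, between them, against 0.768, 0.676, 0.703 and 0.493 in hindbrains (adjusted p = 0.0385) and 0.777 and 0.628 in hearts (adjusted p = 0.0238), with both calls lost with no scaling and the first with no filter. Dkk1 and the 4 Sfrp genes passed in no contrast.

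Single libraries bore on these counts. Without either null carcass limma called no member between hindbrain and carcass, though 10 had an unadjusted p under 0.05 in each case, and Wnt9b, Fzd10 and Dkk2 were also lost there without null hindbrain 1, 2 or 3, as were Wnt9b and Dkk2 without null hindbrain 4. Without null heart 2 the count for hindbrain and heart went from 11 to 5, and Wnt1, Wnt2b, Fzd7 and Fzd10 kept their calls. For heart and carcass, 9 went to 3 without null carcass 1, to 2 without null carcass 2 and to 3 without null heart 2, and Fzd9 and Fzd10 kept theirs in each case, while Wnt11 was lost without null heart 1 as well. With 1 library left in a group, the fit assumes that it varies like the other groups. The share of all windows called also fell in each of these fits for the contrast named. A change at the members alone thus cannot be read from the counts. Wnt1 had peaks in the hindbrains alone, so its kept call was fixed by the filter. The kept calls of Fzd7, Fzd9 and Fzd10 named here each set a tissue with peaks against a tissue with none. Scaling moved the split of calls. Quantile normalization gave 8 members higher and 6 lower in hindbrain than heart (4 and 7 before). Against carcass it gave 3 and 4 for hindbrain (4 and 3 before) and 2 and 6 for heart (5 and 4 before). Between hindbrain and heart, 27.3% of all windows tested were called under quantile normalization, against 31.4% before. The like shares of the other contrasts are not given here. Over all windows called, the share higher in the first tissue went from 35.3% to 50.8%, from 72.1% to 51.9% and from 76.8% to 46.6%. With percent covered and no scaling it was 10.9%, 37.7% and 71.9%, with 2 and 7, 2 and 2, and 2 and 1 members. No member called before changed direction under quantile normalization.

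In hindbrain, carcass and liver, peaks over the members kept away from the transcription starts. Within 500 bp of the start, the relative density of the members was 0.151 ± 0.0326 (n = 4) in null hindbrain, 0.900 ± 0.293 (n = 2) in heart, 0.205 ± 0.0939 (n = 2) in carcass and 0 in liver. Over all genes the same values were 1.22, 1.12, 0.965 and 1.09. From -500 to -1 bp of the 39 starts no null hindbrain had a covered base. A rise on either side followed, to 2.93 ± 0.587 from -2500 to -2001 bp and 3.10 ± 0.271 from 2500 to 2999 bp downstream in hindbrain, and 3.53 ± 0.443 from 3500 to 3999 bp downstream in carcass.

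**Figure D5:**
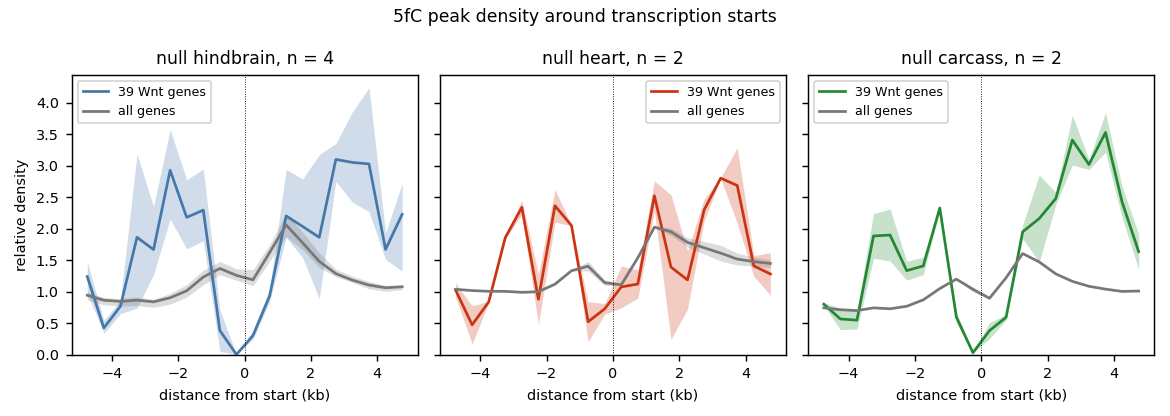
Relative density of 5fC peaks (y axis) by distance from the transcription start (x axis, kb, in steps of 500 bp) over the 39 Wnt genes (coloured) and all genes (grey), as the mean of the null libraries with the range between libraries shaded. The members fall to 0 or near it at the start in hindbrain and carcass, where all genes stay near 1, and rise above all genes on both sides.

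CpG content at the start moved with this. A start is called CpG-rich here where the 500 bp on either side have at least 50% G and C and a CpG ratio of observed over expected above 0.6. Of the members, 29 (74.4%) had such a start, against 44.2% of all genes. Over those 29 the relative density was 0 in every null hindbrain, 0.0140 ± 0.0199 in heart and 0.0197 ± 0.00466 in carcass, whereas all 9758 genes with such starts had 0.547, 0.449 and 0.475. Within 1000 bp the 29 members had 0.131, 0.294 and 0.220, against 1.17, 1.02 and 0.918. Members and other genes with such starts were not matched for CpG content. The 10 members with other starts had 0.590 ± 0.127 in hindbrain and 3.47 ± 1.20 in heart, against 1.76 and 1.66 for all such genes.

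A total of 7 members had a peak at the start in at least 1 null library and none had one in a WT library. No share of all genes is set beside these counts, and WT peaks covered at most 0.939% of the genome. Sfrp4, an antagonist with a CpG-poor start, had one in all 4 hindbrains, both hearts and both carcasses but not in the liver. Wnt8b had one in both hearts and 1 carcass, and Dkk4 in both hearts, and both of these starts are CpG-poor. Wnt5b had one in both carcasses, and Wnt5a, Fzd9 and Dkk3 in 1 heart each.

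Exons of the members had the highest density of the parts of the windows, as was the case over all genes except in carcass and liver. In hindbrain, exons stood at 2.62 ± 0.226 (n = 4), introns at 2.01 ± 0.102, the upstream flank at 1.37 ± 0.164 and the downstream flank at 1.40 ± 0.232, against 1.66, 1.30, 1.01 and 1.07 over all windows. In heart the order was the same, with exons at 2.97 ± 0.0689 and introns at 2.22 ± 0.131 (n = 2). The members' windows were richer in CpG than others, at a median of 17.1 per kb against 11.6. Across all 22089 windows, Spearman's rho of relative density with CpG content was 0.544 in hindbrain and 0.540 in heart. Over the 39 members it was -0.0453 and -0.0472. These are descriptions across genes, which are not independent, and the part of CpG content in the members' density was not tested.

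The peaks recurred at the same places. In all, 22 stretches of at least 200 bp lay under peaks in all 9 null libraries, in 15 members (38.5%, against 19.5% of all windows). Of these, 15 were wholly intronic, 4 touched an exon, none was centred within 1000 bp of a start, and 13 overlapped a WT peak. Among the longest were those in Dkk3 (1300 bp) and Lrp6 (1200 bp, chr6:134476801-134478000). Stretches found only in the null hearts were in 19 members (48.7%, against 47.5% of windows) and those found only in the null carcasses in 19 (48.7%, against 28.1%). The longest of the heart were in Wnt7b (1200 bp), Lrp5 (1000 bp, chr19:3590501-3591500, exons and introns) and Lrp6 (1000 bp, chr6:134426301-134427300). Those of the carcass were in Lrp5 (1000 bp, chr19:3640101-3641100), Lrp6 (900 bp, chr6:134462501-134463400) and Fzd5 (800 bp), the last tied with stretches in Wnt9a, Dkk2 and Sfrp1. Only 2 members had one found in the hindbrains alone, Wnt1 and Lrp5 (200 bp), or 5.13% against 7.88% of windows. For hindbrain 4 libraries must share the bases, and 2 for heart or carcass, so that the counts of different tissues are not comparable with each other.

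The rest of the pathway was read from a list of 47 other genes, all matched, 46 of them tested. Their mean relative density had a median of 2.19, against 1.83 for the members and 0.743 for all windows. Axin2, a feedback inhibitor and common target of the pathway, was highest at 6.04, followed by the Wnt5a receptor Ror2 at 5.53, and the ligand-processing genes Wls (0.107) and Porcn (0) were lowest. Between hindbrain and heart 20 were called, 7 higher in hindbrain and 13 lower, or 43.5% against 31.4% of all windows tested. The 2 called between hindbrain and carcass (4.35% against 4.39%) and the 11 between heart and carcass (23.9% against 26.6%) were near the background. The calls against carcass were Dvl2 and Dvl1, of the 3 Dishevelled genes, which carry the signal from Frizzled. Dvl2 had a mean of 2.23 in hindbrain and 0.0877 in carcass (log2 difference 2.20 ± 0.32, adjusted p = 0.0156, limma). Dvl1 had 0.806 in hindbrain and 0 in the other tissues, so that, like Wnt1, it passed the filter through the hindbrains alone and had to differ. Dvl3, with 1.58 and 0.966, was not called (adjusted p = 0.235).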

How the data were processed

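The authors deposited 1 list of 5fC peaks per library, which holds the chromosome, start and end of each peak on a 100 bp grid in build NCBIM37 (mm9) and no height or score, so the deposited positions (unit: other) are the only measurement used here. Per the labels and the study's methods, reads were trimmed with Trim Galore and aligned with Bowtie2, and MACS called peaks in each library by itself. The gene annotation was GENCODE vM1 of the same build. Peaks over each window of a gene body and 5 kb on either side were merged, and covered bases, percent covered, overlapping peaks and relative density were computed with Python 3.11.15 and NumPy 2.4.6. A total of 278 genes with a symbol that was not unique were left out.

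Genotypes were compared by counts of windows whose groups did not overlap, an exact permutation test in hindbrain and exact sign flips over 6 litters, which the labels give as pairs. Null tissues were compared with limma 3.58.1 in R 4.3.3 (lmFit and eBayes with trend and robust) over 9 libraries, with a pseudocount of 0.5 and Benjamini-Hochberg adjustment, and the code was tested on simulated data. Genes given by library were those called in a tissue contrast, the 5 highest and 5 lowest in mean relative density and those with a peak in at least 4 WT libraries, and stretches were the 3 longest of a class with at most 1 per gene, of which 1 is not reported here. Fzd10 and Fzd9 sequences, and the bases at Sfrp1, Wnt5a and Fzd4, were chosen after values were seen. The members and lists were chosen with earlier results of these data known. Depth was not given in the sources used here, so no counting interval is printed, and weak 5fC under the calling threshold is not counted. Alternatives were peak length, flank, midpoints, pseudocount, scaling, filter, blocks by litter or embryo, and libraries left out.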

Additional observations from a re-analysis of the deposited data

Results flagged for a closer look

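In hindbrain, 1 library stood apart from the other 3 in 3 of 41 groups of 4 values, all 3 of null hindbrain. The groups were the 39 members' relative densities in null hindbrain and the genome coverage of each genotype. Chance alone would mark about 1 in 20 groups of normally distributed values. Groups of equal values could not be marked, and a group with a single covered library always is. The 3 marks fall on the same library and are not independent, since relative density divides by its coverage. The null hindbrain of litter O had peaks over 2.68% of the genome, against 3.52% to 3.67% in the others. The same library had a relative density of 4.46 over Wnt5a, against 2.30, 2.43 and 2.42 in the others, and of 1.37 over Wnt10b, where the others had no peak.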

How the results depend on the processing

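Peak lists carry no depth, and a null library covers far more of the genome than a WT library, so the genotype counts depended on scaling. Relative density gave 19 members in hindbrain in place of 29 and, as an alternative chosen after seeing the data, 16 in carcass in place of 32. Peak length, flank, midpoints and left-out libraries kept the genotype counts within 1.5 times: from 29 to 31 in hindbrain, 31 to 34 in heart and 32 to 34 in carcass without 1 library, and 29 in hindbrain with the WT litters O and Q alone, chosen after seeing the data. With litters as pairs (the replicate block), null was higher in every litter at 30, 31 and 32 members in hindbrain, heart and carcass, with Fzd9 added in hindbrain. No share of all windows by pairs is set beside these counts. Without pairs, 55.0%, 63.9% and 60.2% of all windows separated the genotypes without overlap. The embryo as a random block gave 11, 7 and 9 calls in the tissue contrasts and lost none of the calls.

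Calls between hindbrain and heart ran from 5 to 12 of 11 without 1 library, those between hindbrain and carcass from 0 to 7 of 7 and those between heart and carcass from 2 to 11 of 9. The lowest of these counts came where the share of all windows called fell too. Between hindbrain and carcass, 4 of 36 members were called with no scaling (2.29% of all windows tested) and 4 of 39 with no filter (1.48%). With no flank 3 of 32 were called (4.37%), and with a flank of 10 kb 4 of 39 (5.70%). Between heart and carcass there were 3 of 36 with no scaling (8.90% of all windows tested). Peaks of at least 600 bp gave 6 of 34 (23.9%) and no flank 6 of 32 (27.3%). Among the 25 tested members with no other gene in the window, chosen after seeing the data, calls were 6, 6 and 5. Over all windows tested, 31.4%, 4.39% and 26.6% were called, and no share over windows without another gene is given. Of 27 single calls, 3 held in each fit that included the gene. These were Fzd10 in heart against hindbrain and against carcass, and Wnt1 in hindbrain against heart. The Wnt1 call was fixed by the filter, as described above, so its holding shows no stability. Both Fzd10 calls are against hearts without a peak and are likewise given as a description. Both genes lay outside the fits with no flank, which removed their peaks. Wnt1 also lay outside that with peaks of at least 600 bp, where only its peak in null hindbrain 1 was long enough. In 479 alternative fits 375 kept the call, 101 lost it and 3 turned, namely Dkk4 between hindbrain and heart with a 10 kb flank (0.17), Wnt2b between hindbrain and carcass with no flank (0.21) and Wnt9b between hindbrain and carcass with no scaling (-0.035). The median density in null liver moved to 1.25 with no flank, 1.58 with 10 kb and 1.25 with long peaks. The cause of these changes was not tested. Without 1 library the other medians ran from 1.44 to 1.62 in hindbrain, 1.69 to 2.20 in heart and 1.55 to 1.94 in carcass. Density at starts within 1000 bp was 0.482, against 0.313 within 500 bp.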
